A study of Mus musculus with 2 samples.

Results

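The 5 genes described here are Agrp, Npy, Npy1r, Npy2r and Npy5r, found by their symbols among the 32285 genes of the deposited matrix, each as 1 row. They were followed across NeuN-sorted nuclei, labelled as arcuate nucleus (ARC), of 6 wild-type male C57BL/6J mice aged 10 to 12 weeks, with no treatment named. All nuclei were captured as 1 pooled 10x Genomics library, with a second library for hashtags, which are barcoded antibodies that mark nuclei before pooling. The GEO labels name only ARC, but the files carry 2 hashtags called ARC and PVH (the paraventricular hypothalamus), and no label ties a nucleus to a mouse. There were thus no replicates, and no test of conditions was made.

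AGRP and NPY are released by the same arcuate neurons, which are known for driving hunger. AGRP blocks melanocortin receptors, on which peptides cut from the POMC precursor act, and NPY acts on Y receptors, which couple to inhibitory G proteins. The receptor encoded by Npy2r is known as an autoreceptor of neurons that release NPY, and those encoded by Npy1r and Npy5r are known to relay its effect on feeding. The precursors of both peptides are made in quantity, so their RNA can also leak from broken cells into the droplets of other nuclei. That free RNA is the background against which any peptide count has to be read.

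Agrp (ENSMUSG00000005705) spans bases 105566698 to 105637393 of chromosome 8, minus strand (GRCm38, GENCODE M21). That model is 70.7 kb long and overlaps 7 other genes, of which 2 are on its own strand, which leaves its count unsure for any read that fits more than 1 of them. Npy (ENSMUSG00000029819) spans 49822710 to 49829507 of chromosome 6, plus strand. Npy2r (ENSMUSG00000028004) spans 82538383 to 82548084 of chromosome 3, also minus. Npy5r (ENSMUSG00000044014, minus strand, 66679965 to 66688128) and Npy1r (ENSMUSG00000036437, plus strand, 66697192 to 66706792) are divergent neighbours on chromosome 8, separated by 9.06 kb. No gene overlapped these last 4 models.

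RefSeq promoter windows (GRCm38.p6) were matched for 4 of the 5 members, with Agrp not among them. They are shown because Npy and Npy2r shared their highest cluster and Npy5r had another pattern. Each runs 5′ to 3′ on the strand of its gene up to the first annotated transcribed base, and capitals mark matches to the motifs searched on both strands, which were TATAAA (the TATA box), GGGCGG (the GC box), CACGTG (an E-box), TGACGTCA (the cAMP response element), TAATTA (a homeodomain core) and TTCNNNGAA (a STAT site). The window of Npy1r was not printed, since 230 of its 250 bases lie in an exon of a longer annotated transcript.
Npy, chr6:49822460-49822709, plus strand: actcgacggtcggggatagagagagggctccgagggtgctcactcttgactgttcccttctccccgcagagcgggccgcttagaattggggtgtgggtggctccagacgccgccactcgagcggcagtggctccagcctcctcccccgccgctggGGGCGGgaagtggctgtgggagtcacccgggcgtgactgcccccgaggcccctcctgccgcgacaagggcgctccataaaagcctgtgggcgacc
Npy2r, chr3:82548086-82548335, minus strand: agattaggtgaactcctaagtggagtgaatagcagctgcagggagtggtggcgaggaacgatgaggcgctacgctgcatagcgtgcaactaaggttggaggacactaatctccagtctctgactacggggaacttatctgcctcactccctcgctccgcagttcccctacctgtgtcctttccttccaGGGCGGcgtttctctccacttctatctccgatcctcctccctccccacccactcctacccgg
Npy5r, chr8:66688129-66688344, minus strand: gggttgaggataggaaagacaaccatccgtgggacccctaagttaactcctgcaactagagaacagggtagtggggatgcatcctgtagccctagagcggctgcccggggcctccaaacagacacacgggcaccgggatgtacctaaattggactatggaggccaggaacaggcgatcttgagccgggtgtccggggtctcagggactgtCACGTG
The windows of Npy and Npy2r each held 1 GGGCGG, which 32.7% of all 32851 promoter windows of 250 bases also held. That of Npy5r held 1 CACGTG, found in 4.89% of windows cut to its 216 bases. The other motifs were absent from these windows, and the matches are descriptions of letters, not of bound sites.

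After the filters of the study 10170 nuclei remained, of which 3767 carried the ARC hashtag, 3074 the PVH hashtag, 944 both and 2385 neither. The median depth was 4827 unique molecular identifiers (UMIs, each 1 captured RNA molecule) in ARC nuclei and 5039 in PVH nuclei. Sim1, a transcription factor of the paraventricular nucleus, was at 10.6 CPM (UMIs of the gene per 1000000 UMIs, interval 9.17 to 12.1) with the ARC hashtag and 109 (104 to 114) with the PVH hashtag. Acvr1c, a receptor gene used here as first marker of AGRP neurons, was at 43.6 against 5.80 CPM. The neuronal gene Snap25 was found in 91.7% of ARC and 92.6% of PVH nuclei. Levels are CPM of UMIs summed over nuclei with exact 95% Poisson intervals, shares have exact 95% binomial intervals, and all intervals cover counting error only, so that differences between mice are not in them.

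Clustering was done for each hashtag apart and without the 5 members, and classes were named without Agrp and Npy. The counts of the members therefore did not define the classes. The AGRP-like markers were, however, picked as genes of AGRP neurons, so higher Agrp and Npy in that class is no independent finding. ARC nuclei gave 13 clusters and PVH nuclei 15, numbered by size. All 7 markers of the AGRP-like class (Acvr1c, Corin, Otp, Ghsr, Calcr, Gm8773 and Serpina3n) were raised in ARC cluster 1, with 687 nuclei, and all 6 POMC-like markers in ARC cluster 4, with 282. SST-like (3), KNDy-like (8), GHRH-like (9), VMH-like (10) and dopaminergic-like (12) clusters were also named in the ARC, and 6 ARC clusters were left unnamed. Among PVH clusters 6 were SIM1-like, 1 dopaminergic-like, although Th was not among its raised markers, and 1 VMH-like. ARC cluster 2 was mixed, with raised Sim1 and glial markers, and 50 of its nuclei formed a non-neuronal subcluster in which neuronal markers were at 0.140-fold of the other nuclei.

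**Figure D1:**
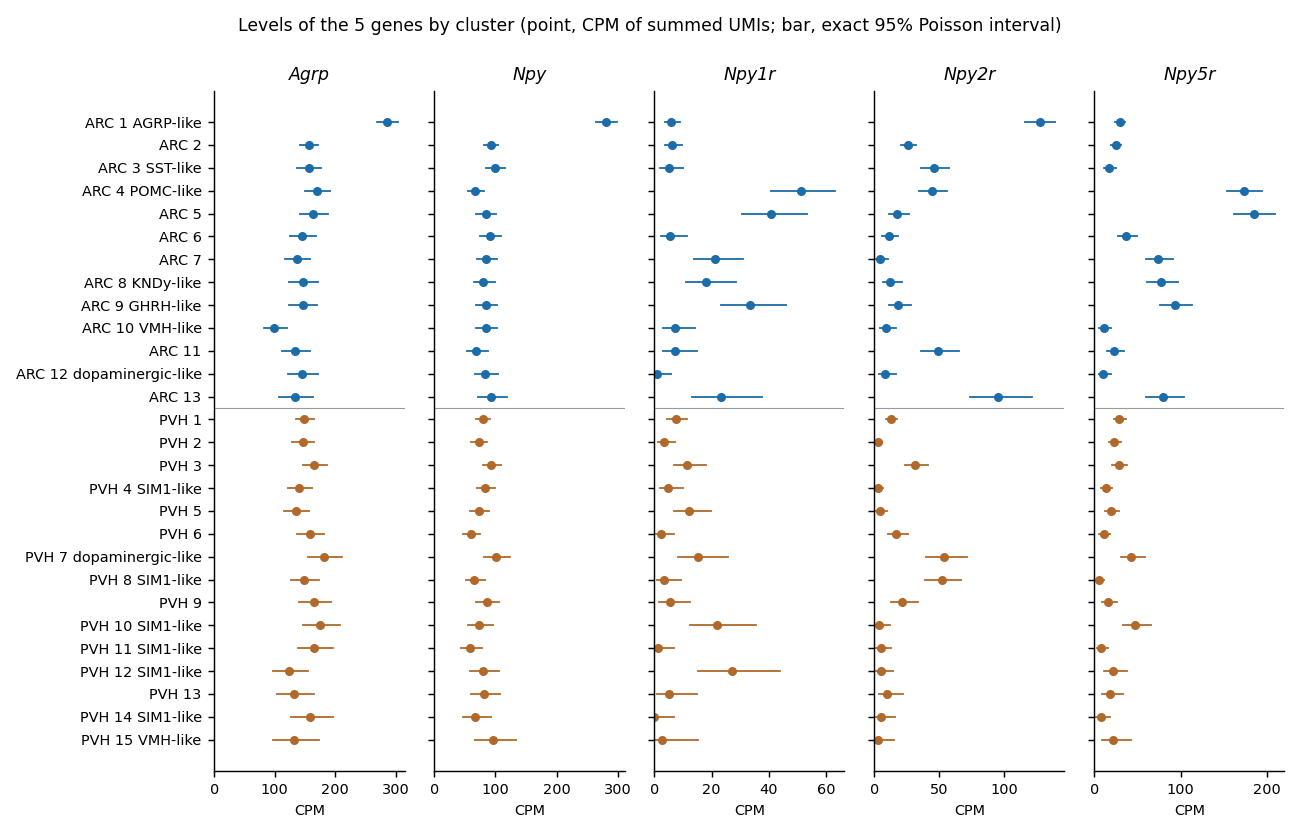
Levels of Agrp, Npy, Npy1r, Npy2r and Npy5r (CPM, each panel with its own scale) in the 13 ARC and 15 PVH hashtag clusters, with exact 95% Poisson intervals. Agrp and Npy were highest in ARC cluster 1, and Agrp was lowest in ARC cluster 10 at 99.6 CPM, whereas the receptors varied over many clusters.

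Agrp, which encodes the melanocortin antagonist, was found in every cluster. Its top level was 286 CPM (269 to 304), in AGRP-like nuclei, from 1061 UMIs. POMC-like nuclei came next at 170 CPM (151 to 191) and cluster 5 at 164 (143 to 187). Clusters 2 and 3 were both at 156, and clusters 6, 8, 9 and 12 lay between 145 and 146. Clusters 7, 11 and 13 were at 136, 134 and 133 CPM, and the VMH-like cluster was lowest at 99.6 (81.8 to 120.0). Among the 12 pairs of neighbours in this order, 2 differed beyond counting error, those at the top and at the bottom. The 15 PVH clusters ran from 123 to 182 CPM and no neighbours in their order differed. Sorting places like values side by side, so this does not show an even level. Against all other PVH clusters together, cluster 7 was at 1.21-fold (1.02 to 1.41), and the intervals of the rest included 1.

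Npy, the gene of the Y receptor ligand, separated the AGRP-like cluster more sharply. It was at 281 CPM (264 to 298) there, from 1041 UMIs. In the 12 other ARC clusters it lay between 66.8 CPM in POMC-like (54.9 to 80.6) and 99.1 in SST-like nuclei (84.2 to 116). PVH clusters ran from 58.9 to 101 CPM. Only the step from the AGRP-like to the SST-like cluster exceeded counting error among ARC neighbours, and none did among PVH neighbours. As for Agrp, steps between sorted neighbours do not show an even level. Against all other PVH clusters together, Npy was at 1.33-fold (1.06 to 1.64) in cluster 7 and 1.23-fold (1.03 to 1.46) in cluster 3. In cluster 6 it was at 0.751-fold (0.586 to 0.9505), and the remaining PVH clusters did not differ beyond counting error.

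Against all other ARC neurons together, AGRP-like nuclei held 3.30-fold more Npy (interval 3.04 to 3.58) and 1.94-fold more Agrp (1.80 to 2.09). In absolute terms the AGRP-like cluster exceeded the others by 196 CPM of Npy and 139 CPM of Agrp, or by 1.08 and 0.789 UMIs per nucleus. Most peptide UMIs lay outside the class. It made up 18.2% of ARC nuclei and held 31.3% of their Agrp UMIs (29.7 to 32.9) and 43.7% of their Npy UMIs (41.7 to 45.7).

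The level outside the class was compared with that in PVH-hashtag nuclei, whose tissue no label names, and in non-neuronal nuclei. PVH nuclei held Agrp at 152 CPM (146 to 158) and Npy at 77.6 (73.5 to 82.0). The ARC neurons outside the AGRP-like cluster held 147.5 (142 to 154) and 85.0 (80.5 to 89.7). That group still holds the 50 non-neuronal nuclei of cluster 2, and without the cluster the levels were 146 (139 to 152) and 83.4 (78.5 to 88.6). For Agrp the ratio of these ARC neurons to PVH nuclei was 0.969 (0.916 to 1.03), and for Npy it was 1.095 (1.01 to 1.18). The 50 non-neuronal nuclei, at a median depth of 2702.5 UMIs, had 35 Agrp UMIs (210 CPM, 146 to 292) and 27 Npy UMIs (162 CPM, 107 to 236). Per nucleus this came to 0.7 Agrp and 0.54 Npy UMIs, against 0.756 and 0.436 in the other ARC neurons. Snap25, by contrast, was at 0.320 UMIs per non-neuronal nucleus against 3.60. The CPM ratio of AGRP-like to non-neuronal nuclei was 1.36 for Agrp (0.973 to 1.97), an interval that includes 1. For Npy it was 1.73 (1.18 to 2.64).

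Shares of nuclei with a UMI also showed both genes outside the class. Of AGRP-like nuclei 72.8% held Agrp, as did 49.8% of other ARC neurons, 54.1% of PVH nuclei and 44% of non-neuronal nuclei. After each nucleus was thinned to 1000 UMIs, which left out 1 nucleus, AGRP-like nuclei stood at 25.0% (21.8 to 28.5), and the other 12 ARC clusters between 9.90% and 15.6%. PVH clusters ran from 10.8% to 20.1%, and the interval of the highest, cluster 9 (14.4 to 26.8), overlapped that of the AGRP-like cluster. Of AGRP-like nuclei 69.9% held Npy, as did 34.4% of other ARC neurons, 33.8% of PVH and 42% of non-neuronal nuclei. Thinned, the AGRP-like share was 23.0% (19.9 to 26.3), against 5.08% to 14.2% of the other ARC clusters and 5.21% to 11.4% of PVH clusters. Non-neuronal nuclei, thinned, stood at 16% for Agrp (7.17 to 29.1) and 14% for Npy (5.82 to 26.7). Both intervals overlapped those of AGRP-like nuclei.

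Among nuclei with 1 hashtag, those with 5 or more UMIs of a peptide lay mostly in the AGRP-like cluster. Nuclei with both hashtags, left out of these groups, included 22 with at least 5 Npy and 19 with at least 5 Agrp UMIs. Nuclei with neither hashtag included 3 for each gene. At least 5 Npy UMIs were found in 28 AGRP-like nuclei (4.08%), 2 other ARC neurons (0.0649%) and 1 PVH nucleus (0.0325%). At least 5 Agrp UMIs were found in 36 AGRP-like nuclei (5.24%), 18 other ARC neurons (0.584%) and 11 PVH nuclei (0.358%). At least 2 UMIs of both genes were seen in 19.5% of AGRP-like nuclei (16.6 to 22.7) but 1.23% of other ARC neurons (0.875 to 1.69) and 1.79% of PVH nuclei. Among nuclei with 1 hashtag the highest counts were 11 for Agrp and 10 for Npy, both in the AGRP-like cluster.

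**Figure D2:**
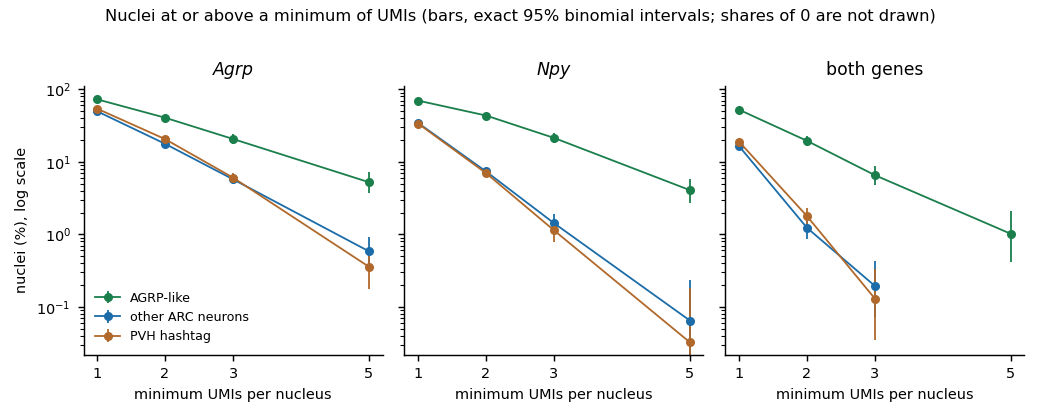
Share of nuclei (%, log scale) with at least 1, 2, 3 or 5 UMIs of Agrp, of Npy or of both, in AGRP-like nuclei, other ARC neurons and PVH hashtag nuclei, with exact 95% binomial intervals. The AGRP-like line drops least with the minimum, and the other ARC and PVH lines run close together.

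Within the AGRP-like cluster, the share with Npy was higher in nuclei with Agrp than in those without. The intervals overlapped, which does not show the shares to be alike. Npy was found in 72.0% of the AGRP-like nuclei with Agrp (67.8 to 75.9) and in 64.2% of those without (56.8 to 71.0), at median depths of 5091 and 4680 UMIs. In other ARC neurons the shares were 33.2% with Agrp and 35.6% without. Both genes together were seen in 52.4% of the class and 16.5% of other ARC neurons.

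The ratio of Npy to Agrp UMIs differed between the class and most other clusters. It was 0.981 (0.900 to 1.07) for AGRP-like nuclei, 0.576 (0.539 to 0.617) for other ARC neurons and 0.510 (0.477 to 0.546) in PVH nuclei. Over the 27 other clusters it ran from 0.356 to 0.845, with a median of 0.558, and in 23 of them the interval lay below that of the AGRP-like cluster. The lowest ARC value was that of the POMC-like cluster, at 0.393 (0.312 to 0.492), and the highest that of the VMH-like cluster, at 0.845 (0.634 to 1.12). In non-neuronal nuclei it was 0.771 (0.449 to 1.31), an interval that covers the values of both AGRP-like nuclei and other ARC neurons. How far the UMIs outside the class were free RNA was not tested.

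**Figure D3:**
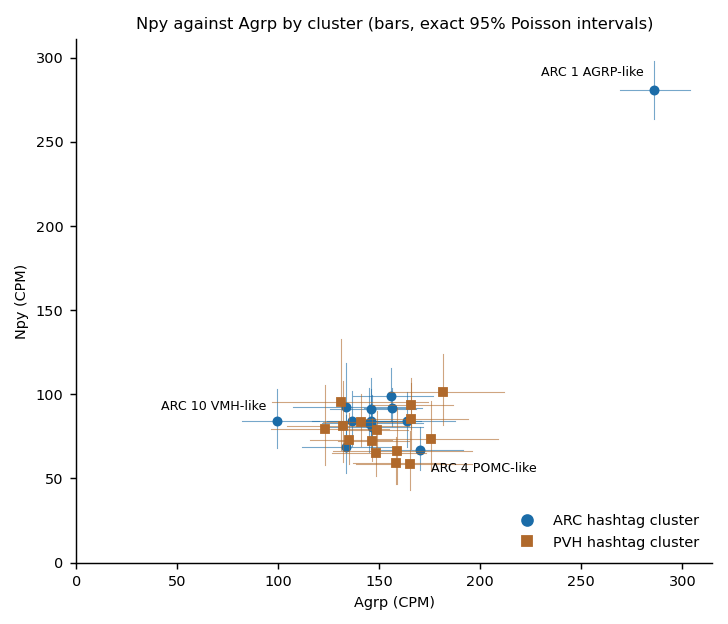
Npy against Agrp (CPM) in each of the 28 clusters, with exact 95% Poisson intervals. ARC cluster 1 lies at 286 and 281 CPM, and all others lie between 99.6 and 182 CPM of Agrp and between 58.9 and 101 CPM of Npy.

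The 2 genes also differed in how their counts grew with depth. When nuclei were split by depth into 4 equal sets, from the shallowest to the deepest set of other ARC neurons the median depth rose 1.83-fold. Npy UMIs per nucleus went from 0.426 to 0.475, a ratio of 1.12 (0.959 to 1.30), whereas Agrp went from 0.643 to 0.952, a ratio of 1.48 (1.32 to 1.66). Snap25, an RNA of the neurons themselves, rose 2.39-fold (2.26 to 2.53). Oxt, the oxytocin gene, belongs to paraventricular and supraoptic neurons and rose 1.23-fold (1.16 to 1.31). Avp, the vasopressin gene of the same neurons as a group, rose 1.46-fold (1.35 to 1.58). The interval for Npy included 1. The rise of Agrp lay between those of Npy and Snap25, and its interval overlapped that of Avp.

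In AGRP-like nuclei, where depth rose 1.75-fold, Npy rose 1.60-fold (1.34 to 1.92), Agrp 1.89-fold (1.59 to 2.26) and Npy2r 1.80-fold (1.37 to 2.36), each with an interval that included the rise in depth. Oxt in the same nuclei was flat at 1.05-fold (0.923 to 1.19). In PVH nuclei, with a 1.96-fold rise in depth, Npy rose 1.32-fold and Agrp 1.52-fold, while Npy2r was at 0.985-fold (0.693 to 1.40).

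**Figure D4:**
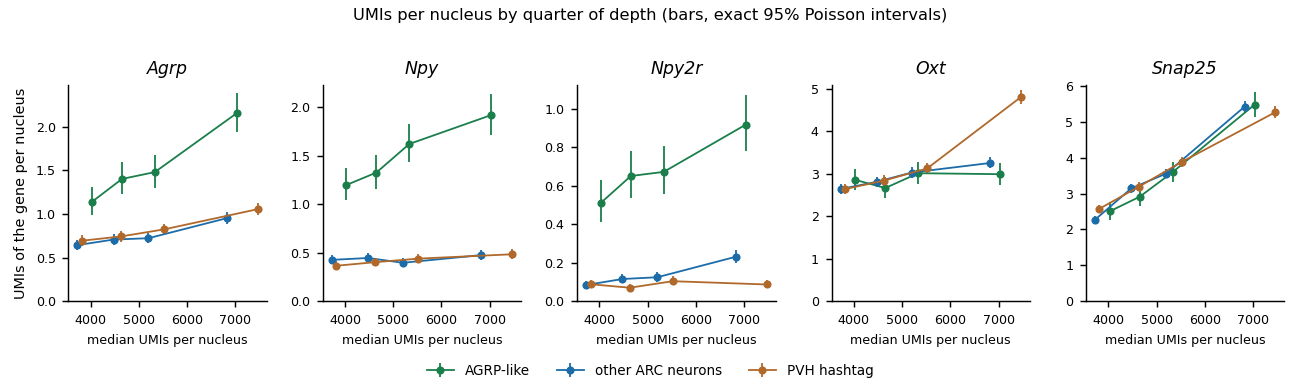
UMIs per nucleus of Agrp, Npy, Npy2r, Oxt and Snap25 against median depth in 4 equal sets by depth of AGRP-like, other ARC and PVH hashtag nuclei, with exact 95% Poisson intervals. Npy climbs 1.12-fold in other ARC neurons, 1.32-fold in PVH nuclei and 1.60-fold in AGRP-like nuclei, Agrp climbs in all 3 groups, and Oxt is flat in AGRP-like nuclei.

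Genes beside Agrp moved with it in part. Gm38250, which overlaps Agrp on the opposite strand, was at 40.4 CPM (34.2 to 47.4) in AGRP-like nuclei, 18.4 (16.4 to 20.7) in other ARC neurons and 20.1 in PVH nuclei. Atp6v0d1, a proton pump subunit gene that neighbours Agrp on its strand, was at 128 (117 to 140), 91.3 (86.6 to 96.1) and 82.0 CPM. Their part in the Agrp counts was not tested.

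Between the hashtags, all 5 members were higher in ARC than in PVH nuclei. Agrp was at 174 against 152 CPM, a ratio of 1.14 (1.09 to 1.203), and Npy at 122 against 77.6, a ratio of 1.57 (1.47 to 1.69). Npy1r was at 15.7 against 7.83 CPM, a ratio of 2.01 (1.63 to 2.48). Npy2r stood at 46.2 against 16.1 (2.88, 2.51 to 3.31), and Npy5r at 59.3 against 21.8 (2.72, 2.41 to 3.06). Hence 3 of 5 members were 2-fold or more higher, where 1.8% of the 15846 genes with at least 50 UMIs were, and none was 2-fold lower, as 2.27% of genes were. Npy1r only just passed, at a log2 ratio of 1.00, and fell short at 0.98 with a mitochondrial share of up to 5%, at 0.95 as a mean of CPM per nucleus and at 0.76 after thinning. Without the AGRP-like cluster the Npy ratio was 1.095, as given above, and thinning moved the Agrp ratio to a log2 value of 0.071 with an interval that includes 0 (-0.10 to 0.24).

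Among genes compared between AGRP-like and other ARC neurons, 2 members were 2-fold or more higher, Npy and Npy2r, and 2 were 2-fold or more lower, Npy1r and Npy5r. Of the 14259 genes with at least 50 UMIs, 2.48% were higher by this measure and 6.3% lower. Ordered by fold, Npy2r was gene 51 and Npy gene 95, and Agrp, at 1.94-fold, was gene 375. Agrp passed 2-fold at a positive quantile of 0.99 (log2 ratio 1.095) and after thinning (1.07). Npy1r (-0.99) and Npy5r (-0.51) fell short when the hashtag step was left out, a setting in which neither side was limited to ARC nuclei.

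Npy2r, the gene of the Y2 autoreceptor, was highest in the AGRP-like cluster at 128 CPM (116 to 140). That was 4.70-fold the level of other ARC neurons (4.12 to 5.37) and 7.93-fold that of PVH nuclei (6.81 to 9.25). A UMI of it was seen in 45.1% of these nuclei against 10.7% of other ARC neurons and 4.00% of non-neuronal nuclei, and in 12.96% (10.5 to 15.7) after thinning. The class held 52.5% of all ARC Npy2r UMIs (49.2 to 55.8). Over the 27 clusters outside the class the median was 12.4 CPM. The lowest levels were 4.73 CPM in ARC cluster 7 and 2.72 in PVH cluster 2. No cluster held less than 99.6 CPM of Agrp or 58.9 of Npy. How far free RNA added to the counts of Npy2r was not tested.

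Npy2r was not confined to AGRP-like nuclei. Cluster 13, an unnamed cluster led by Cgnl1, was at 95.6 CPM (73.9 to 122), below the AGRP-like cluster by a log2 difference of 0.42 (0.04 to 0.81). Cluster 11, led by Tbx19, was at 49.1 CPM, the SST-like cluster at 46.1 and the POMC-like cluster at 44.4, and these neighbours in the order did not differ beyond counting error. Cluster 2 followed at 25.9 and the GHRH-like cluster at 18.5. Clusters 5, 8, 6, 10 and 12 were at 17.7, 12.4, 11.03, 9.05 and 8.54 CPM. Among PVH clusters, cluster 7 (dopaminergic-like) was at 53.9 CPM (39.9 to 71.3) and cluster 8 (SIM1-like) at 51.9 (39.4 to 67.1). PVH cluster 3 was at 31.8, while the others were at 21.6 or less.

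AGRP-like nuclei with an Npy2r UMI did not stand out in the other genes beyond counting error. Agrp was found in 73.5% of the 310 nuclei with Npy2r and 72.1% of the 377 without, and Npy in 70.6% and 69.2%. Lepr, the leptin receptor gene, was found in 46.5% (40.8 to 52.2) and 44.0% (39.0 to 49.2). Npy5r was found in 14.8% (11.1 to 19.3) and 10.6% (7.69 to 14.2). Each pair of intervals overlaps.

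Npy1r and Npy5r, the genes of the Y1 and Y5 receptors, showed another pattern, which they shared. Npy1r peaked in POMC-like nuclei at 51.0 CPM (40.7 to 63.2), followed by cluster 5 at 40.8 (30.5 to 53.3) and the GHRH-like cluster at 33.3 (23.3 to 46.1). Clusters 13, 7 and 8 were at 23.2, 21.3 and 18.2 CPM. The remaining 7 ARC clusters lay between 1.07 CPM, from 1 UMI in the dopaminergic-like cluster, and 7.31. The AGRP-like cluster was in this low group at 5.93 CPM (3.72 to 8.98), from 22 UMIs. Only the step from cluster 8 to cluster 11 exceeded counting error between neighbours.

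Npy5r was highest in cluster 5 at 185 CPM (162 to 210) and next in POMC-like nuclei at 173 (154 to 194), a step within counting error. The GHRH-like cluster was at 93.4, cluster 13 at 79.7, the KNDy-like cluster at 77.5 and cluster 7 at 74.1 CPM, with no step between these neighbours beyond counting error. Cluster 6 was at 37.0, the AGRP-like cluster at 29.4 (24.1 to 35.4), and the other 5 clusters lay between 10.7 and 24.8 CPM. The POMC-like cluster held 24.7% of ARC Npy5r UMIs and 27.5% of Npy1r UMIs, in 7.49% of the nuclei. Cluster 5 held 20.8% and 17.3%, in 7.38% of the nuclei.

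Over the 28 clusters the Pearson correlation of log2(CPM + 1) between Npy1r and Npy5r was 0.85, and each was the gene most like the other among those with at least 200 UMIs. Without ARC clusters 4 and 5 it was 0.81. The ratio of Npy5r to Npy1r UMIs was 3.39 (2.65 to 4.38) for POMC-like nuclei, 4.53 (3.35 to 6.22) for cluster 5, 2.81 (1.90 to 4.23) for GHRH-like nuclei and 4.95 (3.11 to 8.23) for the AGRP-like class, with all intervals overlapping. PVH cluster 12, which was SIM1-like, departed from this with 13 Npy5r and 16 Npy1r UMIs, a ratio of 0.813 (0.360 to 1.80). Clusters share library, depth and base composition, so that the correlation is given as a description.

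**Figure D5:**
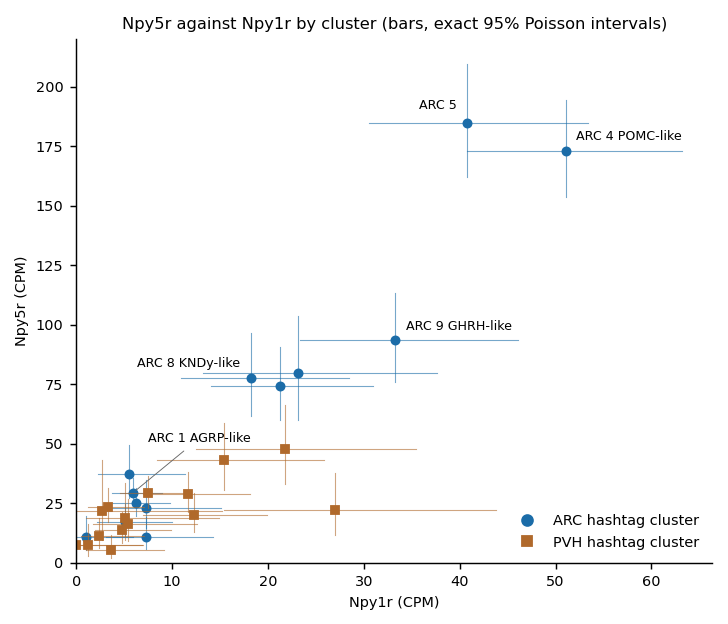
Npy5r against Npy1r (CPM) in each of the 28 clusters, with exact 95% Poisson intervals. ARC clusters 4 and 5 lie at the top with 173 and 185 CPM of Npy5r, ARC clusters 7, 8, 9 and 13 in the middle, and the AGRP-like cluster among the low ones.

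Whether nuclei with Npy1r also held Npy5r more often was looked at in the POMC-like cluster and in cluster 5, and in neither did the shares differ beyond counting error. In the POMC-like cluster, Npy5r was found in 59.6% (45.8 to 72.4) of the 57 nuclei with Npy1r and 50.7% (43.9 to 57.4) of the 225 without, at median depths of 6544 and 5334 UMIs. In cluster 5 the shares were 44.4% (29.6 to 60.0) and 50.2% (43.6 to 56.8). Over all ARC neurons, which mix high and low clusters, they were 40.9% (34.8 to 47.1) and 18.8% (17.5 to 20.1).

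In the POMC-like cluster, 2 members were 2-fold or more higher than in the other ARC neurons, Npy1r by 4.10-fold (3.15 to 5.30) and Npy5r by 3.55-fold (3.10 to 4.07), where 2.14% of 14259 genes were higher and 6.35% lower. None was 2-fold or more lower. Ordered by fold, Npy1r and Npy5r were genes 39 and 57. The unnamed cluster 11, in which 4 of the 6 POMC-like markers were also raised, held Npy1r at only 7.31 CPM and Npy5r at 23.0. Npy2r did not differ beyond counting error, at 0.956-fold (0.742 to 1.22), nor did Agrp, at 0.977-fold (0.861 to 1.10). Without the hashtag step, however, Npy2r was higher in POMC-like nuclei, at a log2 ratio of 0.58 (0.24 to 0.91). Nuclei of every hashtag class were clustered together in that setting, so neither side of that ratio was limited to ARC nuclei. Npy was at 0.525-fold (0.429 to 0.636), a comparison whose other side holds the AGRP-like cluster. Pomc itself was found in 94.7% of POMC-like nuclei with Npy1r and 92.4% of those without.

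The clusters rich in Npy1r and Npy5r differed in their fast transmitter genes. Slc17a6, the vesicular glutamate transporter gene, was at 226 CPM in the KNDy-like cluster, 116 in cluster 7 and 60.2 in the POMC-like cluster, but at 12.3 in cluster 5 and 13.9 in the GHRH-like cluster. Slc32a1, the vesicular GABA transporter gene, was at 46.9 CPM in cluster 5 and 50.9 in the GHRH-like cluster, against 27.8, 23.6 and 14.6 in the KNDy-like cluster, cluster 7 and the POMC-like cluster. AGRP-like nuclei held Lepr at 114 CPM POMC-like nuclei at 111 and cluster 11 at 94.0, whereas it was at 9.23 in cluster 5 and 8.69 in cluster 13.

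The PVH clusters were low in receptors as a group. Npy1r ran from 0 in cluster 14, where 3 UMIs would be 5.54 CPM and the exact interval is 0 to 6.81, to 27.0 CPM (15.4 to 43.8) in cluster 12, with cluster 10 at 21.8 (12.5 to 35.4), both SIM1-like. Npy5r ran from 5.37 CPM in cluster 8 to 47.7 (33.2 to 66.3) in cluster 10 and 42.9 (30.5 to 58.7) in cluster 7. Across the 6 SIM1-like clusters together, Npy5r was at 16.0 CPM against 24.5 in the other 9 PVH clusters, a ratio of 0.655 (0.507 to 0.839). Npy1r (1.11, 0.753 to 1.61) and Npy2r (0.847, 0.640 to 1.11) did not differ beyond counting error, and the interval for Npy1r allows a ratio of up to 1.61. Cluster 6 was among the other 9, since it was left unnamed despite raised Sim1, Otp and other SIM1-like markers. Counted as SIM1-like, in a choice made after seeing the data, it moved the log2 ratio of Npy5r from -0.61 to -0.79 (-1.14 to -0.45) and turned that of Npy1r from 0.15 to -0.18 (-0.73 to 0.35).

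When both hashtags were clustered together, an AGRP-like class held 764 ARC and 11 PVH nuclei. The 11 PVH nuclei had Agrp at 285 CPM (169 to 451), Npy at 269 (157 to 431) and Npy2r at 95.1 (34.9 to 207), levels with wide intervals that include those of the ARC nuclei of the class at 281, 263 and 123 CPM.

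Other genes of the pathway were read from a list of 15, covering other ligands and receptors, degrading enzymes, targets of AGRP and enzymes of peptide processing. Of the 11 with UMIs in both AGRP-like and other ARC neurons, 1 was 2-fold or more higher and 1 lower, beside 2.48% and 6.3% of the genes with at least 50 UMIs, and the median log2 ratio was 0.01, against 0.01 for all genes. Both had fewer than 50 UMIs, and of the 8 list genes that reached this minimum 0 were 2-fold higher or lower. The higher one was Mc3r, a melanocortin receptor on which AGRP acts, at 3.23 against 1.204 CPM (log2 1.43, 0.25 to 2.54). The lower one was Dpp4, a protease that trims NPY, at 1.08 against 2.47 CPM, with an interval of the log2 ratio that includes 0 (-3.14 to 0.27). Mc4r, the other central melanocortin receptor gene, was at 0.809 against 0.760 CPM, from 15 ARC UMIs in all.

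Ligands and receptors related to NPY were almost absent. Pyy had 1 UMI in ARC nuclei, Ppy 0, Npy4r 2 and Npy6r 1. Processing enzymes were abundant and near level: Pcsk2 was at 282 CPM in AGRP-like against 267 in other ARC neurons, Cpe at 171 against 191, Pam at 343 against 336 and Pcsk1 at 39.6 against 42.3. Pcsk1, which cuts the POMC precursor, was at 72.3 CPM in POMC-like nuclei, a log2 ratio of 0.89 (0.60 to 1.18) to other ARC neurons. Between hashtags, Dpp4 was lower in ARC by a log2 ratio of -1.06 (-1.63 to -0.50), and Mc3r higher by 1.27 (0.24 to 2.42), from 31 and 11 UMIs.

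The genes most like each member were taken by the same correlation over the 28 clusters. For Agrp they were Phf6 (r = 0.70), Lyplal1, Rbm4b, Prune2 and Gm15952, and for Npy they were Pcsk1n (r = 0.76), Phf6, Cdk5rap2, Adgrg6 and 9530077C05Rik. For Npy2r they were Hdac1 (r = 0.70), Flot2, Rhot2, Gm14858 and 4930447C04Rik. Mtif3 was second for both Npy1r (r = 0.80) and Npy5r (r = 0.76), followed by Kptn, Slu7 and Snf8 for Npy1r and by Btg3, Itfg2 and Gm19710 for Npy5r. Agrp and Npy correlated at 0.57 over all clusters and at -0.11 without the AGRP-like cluster, so that their likeness rested on that cluster.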

How the data were processed

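Nuclei sorted for NeuN from 6 mice were pooled into 1 gene expression and 1 hashtag library. The authors deposited UMI counts per gene and per hashtag; per the labels, Cell Ranger 5.0 and Seurat 4 were used with mm10, while the matrix header names Cell Ranger 4.0.0. The filters of the study were applied (800 to 5000 genes, at most 12000 UMIs, under 1% mitochondrial), then hashtag demultiplexing at a positive quantile of 0.8, which removed nuclei with both hashtags. No other doublet caller was run, so doublets within a hashtag remained. Variable genes (2000, members taken out), 30 components and Leiden clustering at resolution 0.55 were run in R 4.3.3 with Seurat 5.3.0, and levels in Python 3.11.15 with scipy 1.17.1. A cluster was named where the first marker and at least 3 markers, each with 3 UMIs, were 1.5-fold raised, no other class had more markers among its 10 leading genes and only 1 name fitted, thresholds set after values were seen. PVH cluster 6 stayed unnamed because Abcc9, a mural marker, was among those 10. Genes counted past 2-fold needed 50 UMIs, except in the pathway list. The members and lists were chosen with earlier results of these data known. The genes named were the 5 members, 15 pathway genes, class markers, Lepr and transmitter genes, and the 5 genes most correlated with each member. Oxt, Avp, Gm38250 and Atp6v0d1 were added as references after values were seen. Counting was tested on simulated data, where 100% of 200 genes changed 4-fold were called between hashtags and 99% between AGRP-like and other neurons. There 17 and 82 unchanged genes were called (0.109% and 0.583%). The counts were Poisson draws for pooled groups, without spread between nuclei or mice, free RNA or clustering. These shares therefore check the counting only and are not error rates of the real data.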

Additional observations from a re-analysis of the deposited data

Results flagged for a closer look

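Nuclei with both hashtags entered only the setting without the hashtag step. Split by depth into 4 sets, the shallowest held 236 of these nuclei at a median of 1979.5 UMIs. In it, Agrp was at 407 CPM (353 to 468) and Npy at 573 (508 to 644), both above the 286 and 281 CPM of the AGRP-like cluster. Oxt was at 4328 CPM (4145 to 4516) in the same nuclei. Among the shallowest nuclei with neither hashtag Agrp was at 197 CPM and Npy at 119. These values were picked out as a signal in data outside the comparisons, and their cause was not tested.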

How the results depend on the processing

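Across 15 settings, 137 of 153 alternative values stayed within the counting interval of the reported ratio, or within 1.5 times the count of AGRP-like nuclei, and 16 did not. Some of the 153 values equalled the reported ones exactly, since adding Agrp and Npy to the AGRP-like markers left the class unchanged. At resolution 0.3 the POMC-like ratios were also identical. Of ratios whose interval excluded 0, 0 changed sign. Among the others 3 values did, Npy2r in POMC-like nuclei, reported at -0.06, at a quantile of 0.99 and without the hashtag step, and Npy1r between PVH clusters. A positive quantile of 0.99 left 241 AGRP-like nuclei and gave log2 ratios of 0.49 (Agrp) and 1.43 (Npy1r) between ARC and PVH and 1.095 for Agrp in the AGRP-like cluster. Without the hashtag step, nuclei of every hashtag class were clustered together, so neither side of a ratio was limited to ARC nuclei. The count of 943 AGRP-like nuclei there likewise covered every hashtag class. In that setting AGRP-like ratios were 0.81 for Agrp, 1.55 for Npy, 2.54 for Npy2r and -0.51 for Npy5r. POMC-like ratios were 0.58 for Npy2r and 2.29 for Npy5r. Thinned to 1000 UMIs, ARC over PVH was 0.071 for Agrp and 1.26 for Npy2r, AGRP-like ratios were 1.07 for Agrp and 2.57 for Npy2r, and POMC-like ratios -0.71 for Npy2r and 2.07 for Npy5r. The cause of these moves was not tested. Leaving ARC cluster 2 out of the other neurons was chosen after seeing the data and gave 1.97-fold for Agrp and 3.36-fold for Npy. No paired analysis was possible because all nuclei came from 1 pooled library, so mice could not be told apart, and clusters with few receptor UMIs had wide intervals.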
